A study of Mus musculus with 24 samples.

Results

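The 10 genes described here take part in the release of calcium from the endoplasmic reticulum, its entry across the plasma membrane and its return to the store after phospholipase C is activated: the IP3 receptors Itpr1, Itpr2 and Itpr3, the calcium sensors Stim1 and Stim2, the channels Orai1, Orai2 and Orai3, the IP3 kinase Itpkb and the calcium pump Atp2a3. They were taken by symbol from the 24421 genes counted in each library, and all 10 passed the filter on low counts in both cell populations. RNA was sequenced from bone marrow in 4 genotypes with 3 mice each, which gave 24 libraries. Common lymphoid progenitors (CLPs) had been sorted as Lin-IL-7R+ cells, and the gate for B cell progenitors was B220+IgM-IL-7R+. The marrow came from poly(I:C)-treated donors and was transplanted into lethally irradiated CD45.1+ recipients. Every donor, the wild type included, carried MxCre, a Cre driven by the interferon-inducible Mx promoter, and a Rosa-YFP reporter. The genotypes were Plcg1+/+Plcg2+/+, Plcg1fl/flPlcg2+/+ (labelled Plcg1-/-Plcg2+/+), Plcg1+/+Plcg2-/- and Plcg1fl/flPlcg2-/- (labelled Plcg1-/-Plcg2-/-). Plcg1 was thus deleted by Cre in the haematopoietic cells, while Plcg2-/- was an inherited knockout that did not depend on Cre. How many donors each genotype had is not given in the sources used here, so n counts recipient mice and the p-values measure the spread between them.

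PLCγ1 and PLCγ2 cleave the membrane lipid PIP2 into diacylglycerol and IP3. IP3 opens its receptors in the endoplasmic reticulum, the fall of calcium in that store is sensed by STIM proteins, and these open ORAI channels in the plasma membrane, which is called store-operated calcium entry. Itpkb phosphorylates IP3 to IP4, which ends the IP3 signal and takes part in lymphocyte development, and Atp2a3 encodes SERCA3, a pump that returns calcium to the store in blood cells. The question put to these genes is whether their RNA differed when 1 or both PLCγ isoforms were lost.

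The libraries held 4232345 to 33219995 reads on genes in CLPs and 1479582 to 25057223 in B cell progenitors. Counts are given as normalized CPM, reads scaled to the TMM-adjusted size of the library on the tested genes, and the members were covered by 32 reads (Orai3) to 24487 reads (Atp2a3) in a library. Plcg2, the check of the labels, was 98.55 to 138 CPM in the 6 Plcg2-/- CLP libraries against 195.5 to 282 CPM in the other 6, and 72.1 to 111 CPM against 183 to 247 CPM in B cell progenitors. Its reads were thus lower in the Plcg2-/- libraries but not lost. Plcg1 ranged from 70.9 to 185 CPM in the 6 Plcg1-/- CLP libraries against 90.3 to 113 CPM in the other 6, and from 56.05 to 185 CPM against 77.35 to 113 CPM in B cell progenitors, so the gene's total count did not show the deletion and the names of the genotypes are those of the labels. All libraries labelled Plcg1-/- also differed from the rest in sex-linked RNA, with Xist at 1294 to 2314 CPM against 23.6 to 743 CPM, so the loss of Plcg1 and that difference cannot be told apart. The 7 B cell progenitor markers, among them Cd79a and Pax5, summed to 677 to 5037 CPM in CLPs and 1412 to 5462 CPM in B cell progenitors, and 0 of the 7 passed the test between the populations of the wild type. The 6 CLP markers, among them Il7r and Flt3, summed to 947 to 3210 CPM in CLPs and 1005 to 4853 CPM in B cell progenitors, so neither list separated the populations, and no marker of either list was at 0 in a library. The share of reads outside genes was 17.9% to 45.2% in CLP libraries and 59.9% to 87.35% in those of B cell progenitors, which separates the populations completely.

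Per kilobase of exon, Atp2a3 stood above the other members in 12 of 12 CLP libraries and 12 of 12 B cell progenitor libraries. In the wild type it reached 174 ± 27.5 CPM per kb in CLPs and 159 ± 7.39 CPM per kb in B cell progenitors (SD, n = 3). Itpr3 was next at 24.8 ± 3.87 and 24.5 ± 3.72 CPM per kb, followed by Stim1 at 23.1 ± 1.58 and 21.5 ± 1.85 CPM per kb. The ranges of Itpr3 and Stim1 overlapped in the wild type of both populations. Within a library, Itpr3 stood above Stim1 in 2 of 3 wild-type CLP libraries and in 8 of all 12, so their order there is not beyond the spread. In B cell progenitors it did so in 3 of 3 wild-type libraries and in 11 of 12.

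The middle of the order in wild-type CLPs was held by Itpr1 (20.01 ± 10.99 CPM per kb), Orai3 (18.3 ± 3.69), Orai2 (17.2 ± 6.41) and Itpkb (16.8 ± 1.48), which overlapped one another. Orai1 (14 ± 1.32), Itpr2 (10.01 ± 1.18) and Stim2 (7.71 ± 0.472) came last, and there each gene's wild-type CLP libraries lay wholly above those of the next. In wild-type B cell progenitors the order of the middle changed to Orai3 (15.1 ± 1.11), Itpkb (14.1 ± 1.43), Itpr1 (13.7 ± 2.32), Orai2 (12.5 ± 1.28) and Orai1 (11.5 ± 2.89), while Itpr2 (10.5 ± 0.795) and Stim2 (8.39 ± 1.65) again came last. From Orai3 down, each of these overlapped the next. With the exons of all basic transcripts as the length, Itpkb passed Orai2 in CLPs and Orai3 in B cell progenitors.

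**Figure D1:**
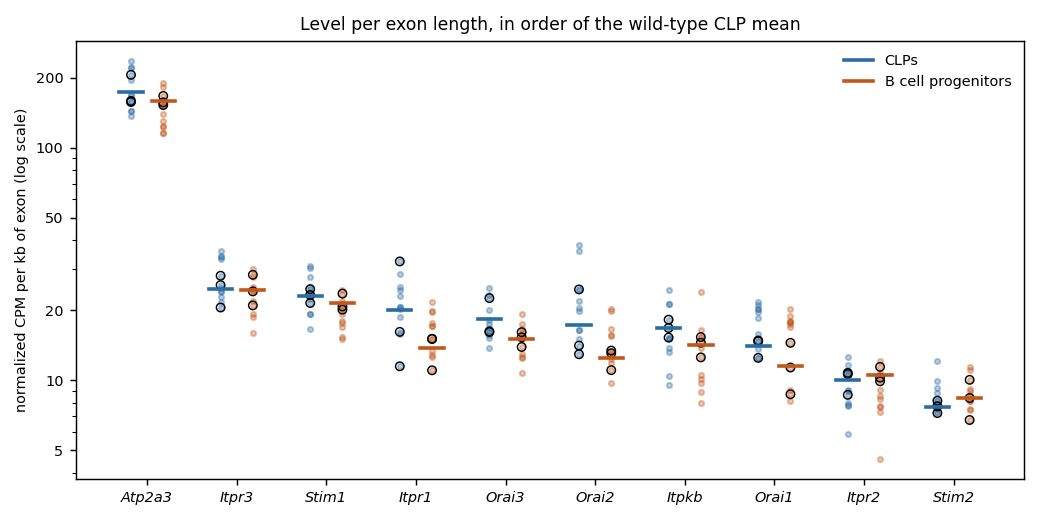
Level of each of the 10 genes in normalized CPM per kb of exon, on a log axis, for CLPs and B cell progenitors. Filled points are the 12 libraries of a population, open circles the 3 wild-type libraries and bars their mean; Atp2a3 lies apart from the rest (174 and 159 CPM per kb), and Stim2 has the lowest means (7.71 and 8.39).

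Within each family the shares of the RNA per kb were compared. Itpr3 held 46.3% ± 12.4 of the IP3 receptor RNA in wild-type CLPs and 50.2% ± 1.41 in wild-type B cell progenitors, Itpr1 held 35.3% ± 14.4 and 28.1% ± 2.38, and Itpr2 held 18.4% ± 2.57 and 21.75% ± 2.21 (SD, n = 3). The wild-type libraries of Itpr3 and Itpr1 overlapped in CLPs and did not in B cell progenitors. The share of Itpr2 was 14.2% ± 3.08 and 14.8% ± 2.30 in the Plcg1-/-Plcg2-/- genotype, and in B cell progenitors the 3 libraries of that genotype (12.2% to 16.3%) lay below the 3 wild-type ones (20.2% to 24.3%). There the share of Itpr3 also lay below (42.2% to 48.9% against 49.1% to 51.8%), and that of Itpr1 above (35.1% to 45.6% against 26.1% to 30.7%). These shares are parts of the same total, so they are not independent. Stim1 held 65.9% to 75.6% of the STIM RNA as a group mean over the 8 groups. No ORAI gene dominated: in wild-type CLPs Orai1 held 28.9% ± 4.81, Orai2 34.1% ± 5.16 and Orai3 37.0% ± 0.678. The Orai3 share of single-deficient CLPs, at 29.3% to 34.3% without PLCγ1 and 31.8% to 33.75% without PLCγ2, lay below the wild type (36.4% to 37.75%). No difference in shares was tested.

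None of the 10 genes passed the test in any comparison of a knockout genotype with the wild type (edgeR's quasi-likelihood test with a Benjamini-Hochberg adjusted p of 0.05 or less and a log2 fold change of 0.5 or more in size). In CLPs 0 of 10 were called after loss of PLCγ1, of PLCγ2 or of both, where 0.00658%, 0% and 0.0921% of all tested genes were called. Among B cell progenitors 0 of 10 were called, where the same losses called 0.06%, 0.0467% and 0.893% of genes. DESeq2 also called 0 of 10 in each of these comparisons. At an unadjusted p of at most 0.05 stood 1, 0 and 1 of 10 in CLPs (2.85%, 3.92% and 7.52% of all genes) and 0, 0 and 2 of 10 in B cell progenitors (9.93%, 2.84% and 12.3% of all genes). In bulk RNA fewer cells of a type and less RNA per cell cannot be told apart, here and in all that follows.

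**Figure D2:**
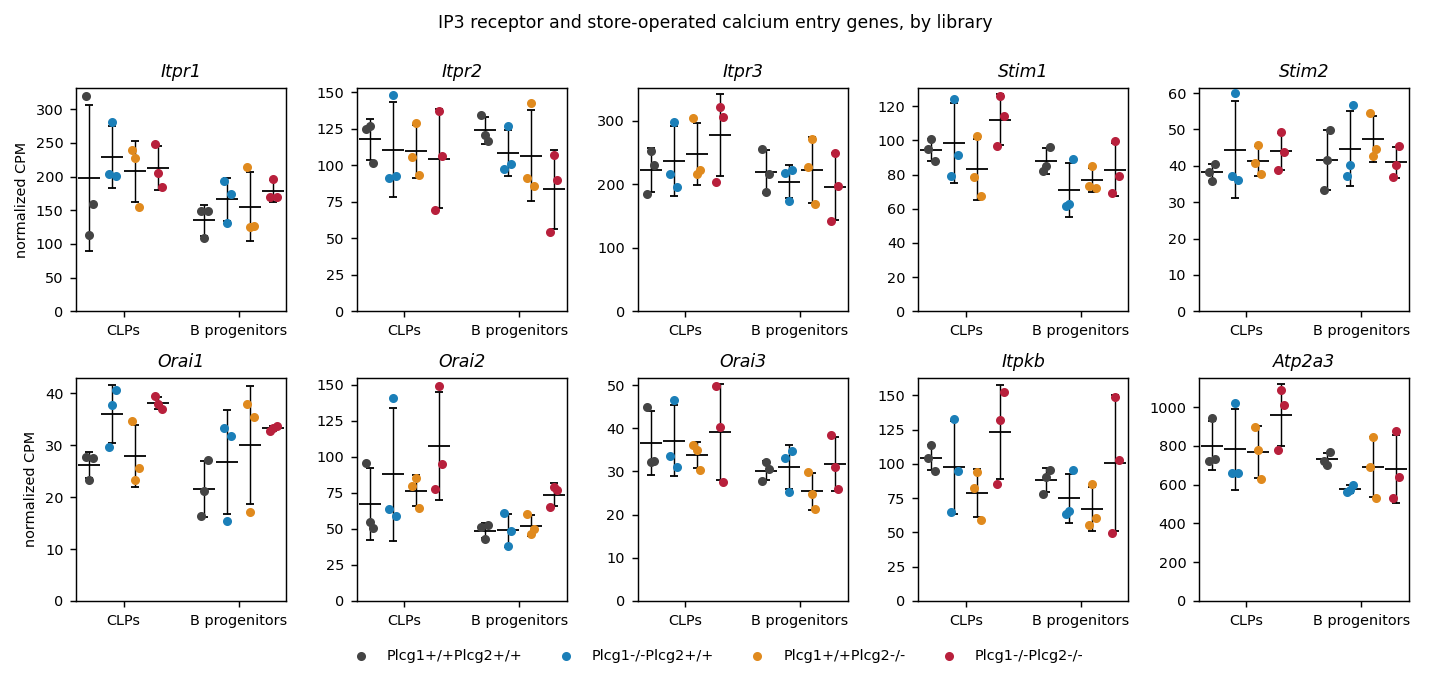
Normalized CPM of each gene in the 24 libraries, by population and genotype. Points are libraries, horizontal bars the mean and error bars the SD of 3 mice; Orai1 and Orai2 in Plcg1-/-Plcg2-/- B cell progenitors (32.8 to 33.6 and 64.9 to 79.2 CPM) lie above all wild-type libraries of that population.

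Of the IP3 receptors, Itpr1, the isoform best known from neurons, read 320, 113 and 159 CPM in the 3 wild-type CLP libraries and 249, 205 and 185 CPM in the Plcg1-/-Plcg2-/- ones. Its values in B cell progenitors were 148, 109 and 149 CPM in the wild type and 169.5, 197 and 169.6 CPM in Plcg1-/-Plcg2-/-. The double-deficient libraries thus lay inside the wild-type range in CLPs and just above it in B cell progenitors. The difference in B cell progenitors was 0.40 on the log2 scale (SE 0.22, adjusted p = 0.486, edgeR's quasi-likelihood test), a fold of 1.32 with a 95% confidence interval of 0.949 to 1.83.

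Itpr2 went the other way. Its libraries of B cell progenitors read 134.5, 121 and 116.5 CPM in the wild type and 54.1, 107 and 90.1 CPM in Plcg1-/-Plcg2-/-, so that all 3 double-deficient libraries lay below the wild type. The log2 fold change was -0.56 (SE 0.24, unadjusted p = 0.0393 and adjusted p = 0.375 by edgeR's quasi-likelihood test), with a fold of 0.678 and a confidence interval of 0.470 to 0.978. It was -0.33 without the lowest library, mouse 1 of the double-deficient genotype, whose B cell progenitors also read below their group mean for 9 of the 10 genes. In CLPs the ranges overlapped, at 102 to 127 CPM in the wild type and 69.5 to 137 CPM in Plcg1-/-Plcg2-/-, with a log2 fold change of -0.19 (SE 0.25).

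Itpr3, the receptor with the highest mean per kb in both wild-type populations, read 185, 253 and 231 CPM in wild-type CLPs and 204, 322 and 306 CPM in Plcg1-/-Plcg2-/- CLPs. The groups overlapped, with a log2 fold change of 0.31 (SE 0.22, adjusted p = 0.781 by edgeR's quasi-likelihood test). The difference in B cell progenitors was -0.16 (SE 0.22), and over the 6 comparisons with the wild type the confidence intervals of Itpr3 ran from -0.64 to 0.78 on the log2 scale.

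Stim1, the main calcium sensor of the store, read 95.01, 101 and 87.7 CPM in wild-type CLPs and 96.5, 126 and 114 CPM in Plcg1-/-Plcg2-/- CLPs. B cell progenitors read 82.1, 84.7 and 96.3 CPM in the wild type and 69.5, 99.7 and 79.1 CPM in Plcg1-/-Plcg2-/-. The ranges overlapped in both populations. The log2 fold changes were 0.24 (SE 0.19) and -0.08 (SE 0.17), and the intervals of all 6 comparisons with the wild type lay between -0.66 and 0.65.

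Stim2, which senses smaller falls in store calcium, was the steadiest member: the range of its group means over the 8 groups was 0.30 on the log2 scale, wider than in only 5.91% of the tested genes. Its wild-type mean was 38.2 ± 2.34 CPM in CLPs and 41.6 ± 8.17 CPM in B cell progenitors, against 43.95 ± 5.19 and 40.95 ± 4.30 CPM in Plcg1-/-Plcg2-/- (SD, n = 3). The intervals of its 6 comparisons with the wild type ran from -0.44 to 0.62.

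The ORAI channels held the smallest p-values of the members against the wild type, those of Orai1 in CLPs and of Orai2 in B cell progenitors, and for that reason their upstream sequences are shown. Both genes lie on chromosome 5 of GRCm38, Orai1 at chr5:123015074-123030456 on the plus strand and Orai2 at chr5:136147459-136170713 on the minus strand. The Orai1 stretch is chr5:123014824-123015073, the 250 bases before the RefSeq start. The Orai2 stretch is the 193 of those bases that lie outside the annotated gene, chr5:136170714-136170906. Each is written 5′ to 3′ on the strand of the gene, from RefSeq on GRCm38.p6, with the motif GGGCGG, the motif CCAAT and the motif TATAAA on either strand in capitals.
Orai1: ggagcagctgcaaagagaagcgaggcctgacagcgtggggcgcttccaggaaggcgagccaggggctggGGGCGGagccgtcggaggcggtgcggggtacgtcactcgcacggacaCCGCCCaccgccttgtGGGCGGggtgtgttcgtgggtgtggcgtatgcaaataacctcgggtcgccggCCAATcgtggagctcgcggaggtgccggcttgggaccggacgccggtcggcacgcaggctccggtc
Orai2: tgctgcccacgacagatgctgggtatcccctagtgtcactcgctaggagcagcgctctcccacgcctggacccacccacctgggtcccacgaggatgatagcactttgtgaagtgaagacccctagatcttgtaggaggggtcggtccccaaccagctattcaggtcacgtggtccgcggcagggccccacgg
The Orai1 stretch held 3 GGGCGG motifs, a GC box that Sp1 family factors can bind, and 1 CCAAT box, in 70.8% GC. The Orai2 stretch shown held none of the 3 motifs, and the whole 250 bases held 1 GGGCGG motif in 63.6% GC. Of 32851 windows of 250 bases before RefSeq starts, 32.7% held GGGCGG, 33.85% held CCAAT and 12.4% held TATAAA, and the median GC content was 52.4%. These matches describe the letters and are not tied to the counts.

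Orai1, the pore of the classical store-operated channel, read 27.8, 23.4 and 27.6 CPM in wild-type CLPs and 39.5, 37.9 and 37.0 CPM in Plcg1-/-Plcg2-/- CLPs. All double-deficient libraries lay above the wild type, and they were close to one another. The log2 fold change was 0.52 (SE 0.18, unadjusted p = 0.0121 and adjusted p = 0.464 by edgeR's quasi-likelihood test), a fold of 1.44 with a confidence interval of 1.10 to 1.88. Such a separation upward was seen for 1 of the 10 members and for 6.27% of all genes.

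The Plcg1-/-Plcg2+/+ CLPs also lay above the wild type, as 3.17% of all genes did, at 29.7, 37.8 and 40.6 CPM of Orai1, with a log2 fold change of 0.45 (SE 0.18, unadjusted p = 0.0264 and adjusted p = 1 by edgeR's quasi-likelihood test). The Plcg1+/+Plcg2-/- CLPs read 34.6, 23.4 and 25.6 CPM and overlapped the wild type. The comparisons share their wild-type libraries. Orai1 in B cell progenitors read 16.3, 21.3 and 27.2 CPM in the wild type and 32.8, 33.4 and 33.6 CPM in Plcg1-/-Plcg2-/-. These groups did not overlap either, but the wild type spread more. The log2 fold change of 0.62 (SE 0.32) had an adjusted p of 0.464 by edgeR's quasi-likelihood test and a fold interval of 0.945 to 2.51. The single-deficient B cell progenitors spread over both levels, at 33.3, 15.3 and 31.8 CPM without PLCγ1 and 37.9, 17.1 and 35.4 CPM without PLCγ2.

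Orai2, a subunit that forms mixed channels with Orai1 in lymphocytes, gave the smallest p of the members. It read, in B cell progenitors, 51.1, 43.2 and 52.4 CPM in the wild type and 64.9, 79.2 and 77.3 CPM in Plcg1-/-Plcg2-/-, without overlap. The log2 fold change was 0.59 (SE 0.18, unadjusted p = 0.00527 and adjusted p = 0.181 by edgeR's quasi-likelihood test), a fold of 1.51 with a confidence interval of 1.16 to 1.97. The single-deficient B cell progenitors did not share this level, at 38.2 to 61.1 CPM without PLCγ1 and 46.2 to 60.6 CPM without PLCγ2. In CLPs Orai2 spread widely, at 50.6 to 96.0 CPM in the wild type and 77.6 to 149 CPM in Plcg1-/-Plcg2-/-, and the log2 fold change of 0.65 had an SE of 0.36.

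As a count, 3 of the 10 members, Itpr1, Orai1 and Orai2, had all Plcg1-/-Plcg2-/- libraries above the wild type in B cell progenitors, against 9.03% of all genes, and 1, Itpr2, had them all below, against 10.2%. Markers of other blood cells were also summed in that comparison, and the ranges of every list but the plasma cell one overlapped. Of the 7 neutrophil and monocyte markers 7 had a positive estimate without any passing the test, and their sum was 1404 to 4474 CPM in wild-type and 2632 to 6758 CPM in Plcg1-/-Plcg2-/- B cell progenitors. The 4 plasmacytoid dendritic cell markers summed to 272 to 472 and 362 to 1168 CPM, and the 5 macrophage markers to 27.9 to 53.0 and 52.5 to 91.1 CPM. The 7 T and NK cell markers summed to 44.6 to 80.5 CPM in wild-type and 41.75 to 153 CPM in Plcg1-/-Plcg2-/- B cell progenitors, and the 5 innate lymphoid markers to 42 to 97.45 and 82.3 to 176 CPM, with positive estimates for 7 of 7 and 5 of 5 and none passing. Most of the innate lymphoid sum was Kit, which is also in the CLP list. Kit read 27.7, 36.3 and 70.75 CPM in the wild type and 135, 67.1 and 79.1 CPM in Plcg1-/-Plcg2-/-. The 5 erythroid markers, of which the 3 globin genes were listed at 0 in every library, summed to 4.13 to 45.4 and 18.96 to 53.5 CPM. The 3 plasma cell markers summed to 185 to 511 and 515 to 2018 CPM, with a positive estimate for 1 of the 3. Most of that sum was Jchain, at 129, 225 and 447 CPM in wild-type and 1989, 491 and 699 CPM in Plcg1-/-Plcg2-/- B cell progenitors. Of all these markers 1 passed the test there, Sdc1 of the plasma cell list, which encodes the surface protein syndecan-1 and is named here after its values were seen. Which cells its RNA came from was not tested. It read 52.3, 56.2 and 52.9 CPM in the wild type and fell to 24.9, 19.8 and 15.8 CPM in Plcg1-/-Plcg2-/-, with a log2 fold change of -1.44 (SE 0.27, adjusted p = 0.0261 by edgeR's quasi-likelihood test), against the direction of its list's sum. In CLPs the neutrophil and monocyte sum was 2290 to 3899 CPM in the wild type, 3435 to 7848 CPM in Plcg1-/-Plcg2-/- and 2787 to 8655 CPM in Plcg1-/-Plcg2+/+. The macrophage sum there was 35.5 to 55.6 CPM in the wild type, 64.8 to 79.3 CPM in Plcg1-/-Plcg2-/- and 73.2 to 104 CPM in Plcg1-/-Plcg2+/+. The innate lymphoid sum in CLPs spread widely, at 47.5 to 439 CPM in the wild type, 92.0 to 366.5 CPM in Plcg1-/-Plcg2-/- and 142 to 523 CPM in Plcg1-/-Plcg2+/+. Apart from the globin genes no marker was at 0 in a library, and the part of these markers in the values of Orai1, Orai2 and Itpr2 was not tested.

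Orai3, the third channel gene, differed little between genotypes. It read 32.2 to 45.0 CPM in wild-type and 27.6 to 49.7 CPM in Plcg1-/-Plcg2-/- CLPs, and 27.7 to 32.1 and 26.0 to 38.35 CPM in the B cell progenitors. The ranges of the double-deficient libraries enclosed those of the wild type in both populations, and the intervals of its 6 comparisons ran from -0.64 to 0.59 on the log2 scale.

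**Figure D3:**
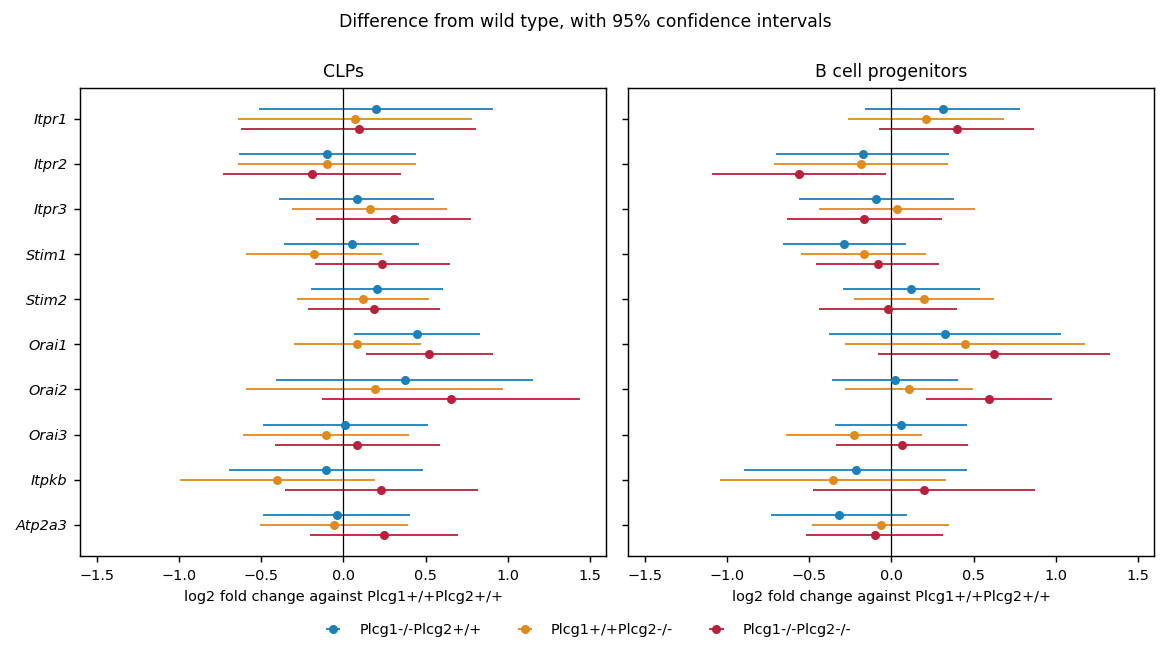
Log2 fold change of each gene in the 3 knockout genotypes against Plcg1+/+Plcg2+/+, for CLPs and B cell progenitors, with 95% confidence intervals from edgeR's fit of 12 libraries. Most intervals include 0; those of Orai1 in Plcg1-/-Plcg2+/+ and Plcg1-/-Plcg2-/- CLPs and of Orai2 and Itpr2 in Plcg1-/-Plcg2-/- B cell progenitors do not, and none of these passed after adjustment.

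Itpkb, the IP3 kinase, read 105, 114 and 95.1 CPM in wild-type CLPs, 82.8, 93.9 and 59.2 CPM in Plcg1+/+Plcg2-/- CLPs and 85.7, 132 and 152 CPM in Plcg1-/-Plcg2-/- CLPs. The Plcg1+/+Plcg2-/- libraries all lay below the wild type, as 4.58% of genes did, with a log2 fold change of -0.40 (SE 0.27, adjusted p = 0.939 by edgeR's quasi-likelihood test). In Plcg1-/-Plcg2-/- B cell progenitors it read 49.8, 149 and 103 CPM, the widest spread in ratio of any member in a group of B cell progenitors, around 78.2 to 95.6 CPM in the wild type.

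Atp2a3 read 724, 947 and 732 CPM in wild-type CLPs and 779, 1090 and 1011 CPM in Plcg1-/-Plcg2-/- CLPs, which overlapped, with a log2 fold change of 0.25 (SE 0.21). The Plcg1-/-Plcg2+/+ B cell progenitor libraries, at 563, 573 and 600.4 CPM, lay below the wild-type ones at 721, 702.5 and 769 CPM, as 11.2% of genes did, and the log2 fold change was -0.32 (SE 0.19, adjusted p = 0.474 by edgeR's quasi-likelihood test). The intervals of Atp2a3 in all 6 comparisons lay between -0.73 and 0.70, the full range that these data left for the most abundant member.

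Over the members as a whole, 9 of 10 had a positive log2 fold change in Plcg1-/-Plcg2-/- CLPs, with a median of 0.23 where that of all genes was -0.03. In Plcg1-/-Plcg2-/- B cell progenitors 5 of 10 did, with a median of 0.02 and -0.02 over all genes. Itpr1, Orai1 and Orai2 were above the wild-type estimate in 6 of 6 knockout comparisons and Itpr2 was below it in 6 of 6, but the 3 comparisons of a population use the same wild-type libraries. Both populations also come from the same mice, so the 6 are not independent. The share of all genes with 1 sign in 6 of 6 was not counted. The change in Plcg1-/-Plcg2-/- relative to the wild type was tested for a difference between the populations: 0 of 10 were called, as were 0% of all genes, and 0 of 10 reached an unadjusted p of 0.05 (1.37% of all genes, edgeR's quasi-likelihood test). The intervals of that difference reached from -1.16 to 1.15 on the log2 scale.

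The double-deficient genotype was also set against each single-deficient one. In CLPs 0 of 10 members were called against Plcg1-/-Plcg2+/+ and 0 of 10 against Plcg1+/+Plcg2-/- (0.0263% and 0.0526% of all genes), and DESeq2 called 0 in both. An unadjusted p of 0.05 or less was reached by 0 of 10 against Plcg1-/-Plcg2+/+ (4.29% of all genes). Against Plcg1+/+Plcg2-/-, 3 of 10 reached it (7.54% of all genes), namely Itpkb, Orai1 and Stim1, with log2 fold changes of 0.63 (SE 0.27), 0.44 (SE 0.18) and 0.42 (SE 0.19). Their adjusted p-values by edgeR's quasi-likelihood test were 0.629, 0.611 and 0.655. Of these Orai1 alone had libraries that did not overlap, as 7.32% of all genes did in that direction.

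Of 10 members 0 were called in B cell progenitors against either single-deficient genotype (0.213% and 0.153% of all genes), and DESeq2 called 0. Orai2 was the 1 member with an unadjusted p of at most 0.05, in 16.6% and 11% of all genes. It was higher in Plcg1-/-Plcg2-/- by 0.57 on the log2 scale (SE 0.18, adjusted p = 0.17) and 0.49 (SE 0.18, adjusted p = 0.382), by edgeR's quasi-likelihood test, without overlap in either comparison, as 6.31% and 5.77% of all genes were. The Plcg1-/-Plcg2-/- libraries are the same in these comparisons and in that with the wild type. Set against the sum of the effects of the single losses, 0 of 10 members were called in CLPs (0.0197% of genes) and 0 of 10 in B cell progenitors (0.0267%). None reached an unadjusted p of 0.05 there in either population (4.77% and 15.3% of genes).

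Between the populations, the members leaned toward lower RNA in B cell progenitors, without any passing the test. Of 10 members 8 were lower in the wild type, 9 in Plcg1-/-Plcg2+/+, 8 in Plcg1+/+Plcg2-/- and 10 in Plcg1-/-Plcg2-/-, with medians of -0.19, -0.41, -0.15 and -0.31 on the log2 scale where all genes had -0.01, 0.13, 0.08 and -0.03. Called were 0 of 10 in each genotype (3.5%, 3.78%, 3.21% and 3.24% of all genes), and DESeq2 called 0. At an unadjusted p of at most 0.05 stood 0, 2, 0 and 3 of 10, against 16.1%, 26.5%, 16.2% and 14.3% of all genes. The share of reads on no gene moves with this comparison in every mouse, and its part was not tested beyond adding it to the fit, which turned the sign of each of these 5 differences.

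**Figure D4:**
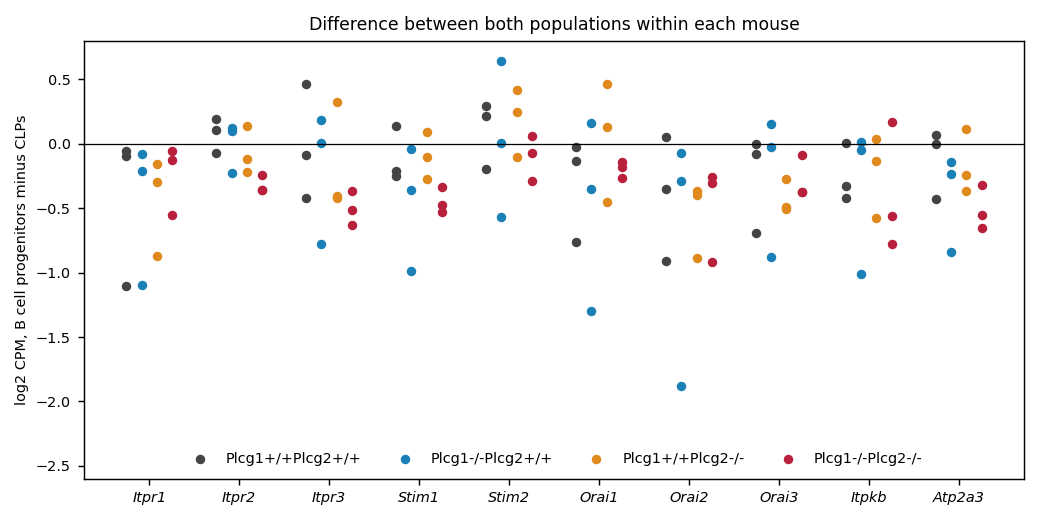
Log2 CPM in B cell progenitors minus log2 CPM in CLPs of the same mouse, for each gene. Points are the 12 mice, coloured by genotype; the points of Itpr1 all lie below 0 (-1.11 to -0.06), and those of Stim2 fall on both sides.

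Within mice, Itpr1 was lower in B cell progenitors than in CLPs in 12 of 12, by a median of -0.18 on the log2 scale and with a range of -1.11 to -0.06. Of all genes 4.85% were lower in as many mice. The widest Itpr1 gap was that of wild-type mouse 1, whose CLP library read 320 CPM against 113 and 159 CPM in the other wild-type CLP libraries. Orai2 and Orai3 were lower in 11 of 12 mice (11% of genes were in as many or more), by medians of -0.36 and -0.32. Stim1 and Atp2a3 were lower in 10 of 12, while Stim2 was lower in 5 of 12. The widest gap was that of Orai2 in mouse 2 of Plcg1-/-Plcg2+/+, at -1.88, from 141 CPM in CLPs to 38.2 CPM in B cell progenitors. That B cell progenitor library had the highest share of reads on no gene, 87.35%. The CLP library of that mouse also read high for innate lymphoid markers. Gata3 was at 103 CPM there, against 2.46 and 53.3 CPM in the genotype's other CLP libraries, and Rora at 155 CPM against 7.63 and 42.8 CPM. The part of either in the gap was not tested.

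In several libraries the 10 genes deviated from their group means in the same direction. In CLPs all 10 read above the group mean in mouse 2 of Plcg1-/-Plcg2+/+, and all 10 read below it in mouse 1 of Plcg1-/-Plcg2+/+ and in mouse 3 of Plcg1+/+Plcg2-/-. The last was the shallowest CLP library, with 4232345 reads on genes, and the one with the highest share of CLP reads on no gene, 45.2%. Over the 24 libraries, deviations from the group mean correlated most between Itpr3 and Atp2a3 (Pearson r = 0.87), Stim1 and Itpkb (0.86), Itpr2 and Atp2a3 (0.82) and Itpkb and Atp2a3 (0.80). The lowest correlation was that of Orai1 with Itpr2 (-0.42). These are descriptions over libraries that share depth and normalization, and CLPs and B cell progenitors of 1 mouse are not independent. Deviations also cancel within a group, so mouse 1 and mouse 2 of Plcg1-/-Plcg2+/+ CLPs are not separate observations. Of the CLP libraries, mouse 2 of Plcg1-/-Plcg2+/+ had the lowest TMM factor, 0.897, and mouse 3 of Plcg1+/+Plcg2-/- the highest, 1.075.

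**Figure D5:**
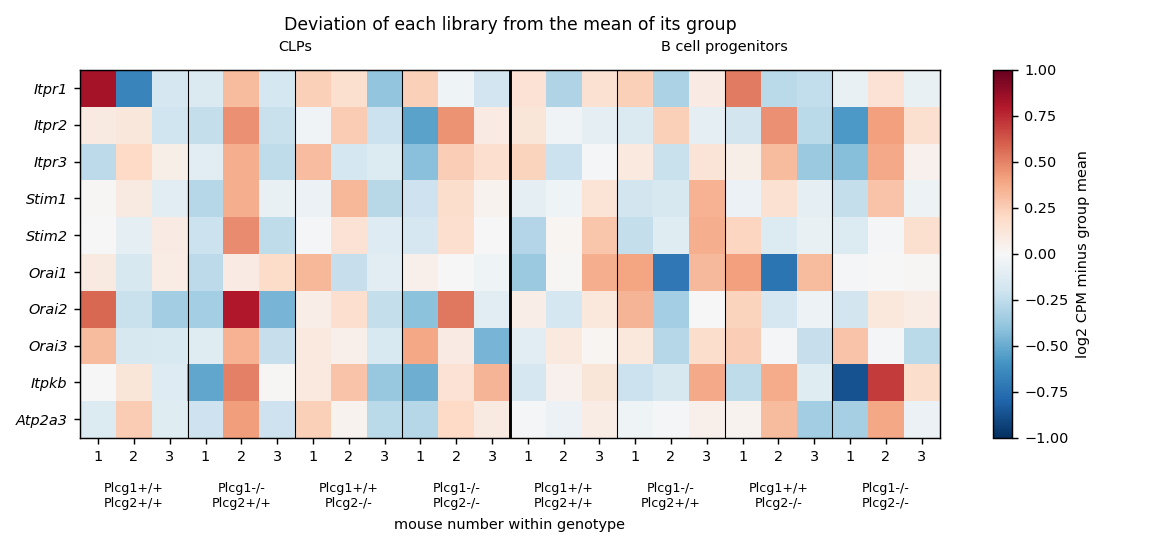
Log2 CPM of each gene in each library minus the mean of its group, as a colour from -1 (blue) to 1 (red), for 3 mice of each genotype and population. Columns of 1 colour are libraries in which the genes deviated together, such as mouse 2 of Plcg1-/-Plcg2+/+ in CLPs, and Orai1 in Plcg1-/-Plcg2-/- B cell progenitors hardly deviates (32.8 to 33.6 CPM).

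The 3 members with the widest range of group means were Orai2, Itpkb and Orai1, at 1.10, 0.86 and 0.85 on the log2 scale, which was wider than in 55.3%, 46.6% and 46.1% of tested genes. Over 24 libraries and 17202 other genes, the pattern of Orai2 was most like those of Capn1 (Pearson r = 0.95), Abtb1 (0.95) and Psd4 (0.94). That of Itpkb was most like those of Ctdsp2 (0.93), Pik3cd (0.92) and Abl1 (0.92), and that of Orai1 most like those of Ifitm2 (0.94), Fam222b (0.92) and Scamp2 (0.92).

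The wider calcium machinery was read in 77 further genes in 7 lists, among them IP3-metabolizing enzymes, partners of the IP3 receptors, regulators of STIM and ORAI, other pumps and channels, the mitochondrial uniporter complex and calmodulins. In the comparisons of a knockout genotype with the wild type or of Plcg1-/-Plcg2-/- with a single-deficient genotype, 0 of the 72 tested genes passed, higher or lower. In Plcg1-/-Plcg2-/- 42 of 72 were above the wild type in CLPs and 42 of 72 in B cell progenitors, and 4 and 10 of the 72 reached an unadjusted p of 0.05 (7.52% and 12.3% of all genes). By list, the median log2 fold change in Plcg1-/-Plcg2-/- B cell progenitors was highest for the 12 partners of the IP3 receptors, at 0.24, and lowest for the 5 chaperones and calmodulins, at -0.30.

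Between the populations of the wild type, 0 of 75 tested genes of these lists were called (3.5% of all genes) and 18 reached an unadjusted p of 0.05 (16.1% of all genes). The smallest adjusted p of the inositol phosphate list was that of Impa2, an inositol monophosphatase, at -0.52 (SE 0.18, adjusted p = 0.132). In Plcg1+/+Plcg2-/- it was called, with a log2 fold change of -0.69 (SE 0.19, adjusted p = 0.0438). Esyt1, an extended synaptotagmin that tethers the endoplasmic reticulum to the plasma membrane, was called in Plcg1-/-Plcg2-/- with -0.63 (SE 0.16, adjusted p = 0.0289). These were the 2 calls among the calcium lists over the 4 genotypes, both lower in B cell progenitors, by edgeR's quasi-likelihood test, where 3.21% and 3.24% of all genes were called; Esyt1 is named here after its values were seen.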

How the data were processed

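Per the labels, the authors purified poly(A) RNA, prepared NEBNext Ultra libraries and aligned reads to mm10 with STAR 2.5.0a; they deposited raw counts of reads per gene, not normalized. The counting program and its strand setting are not given in the sources used here. The 2 closing lines of each file, reads on no gene and ambiguous reads, were left out of library sizes. Itpkb shares 1.06% of its exon bases with Gm5069 on the other strand.

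Tests were run in R 4.3.3 with edgeR 4.0.16 (filterByExpr, TMM, glmQLFit, glmQLFTest, Benjamini-Hochberg adjustment over all genes tested), in 1 fit of 12 libraries per population (15209 genes in CLPs, 15001 in B cell progenitors) and 1 fit of 24 libraries between populations (17212 genes). Scripts were tested on simulated data. DESeq2 1.42.0 was an alternative. Exon lengths come from GENCODE M21 transcripts matched to RefSeq. Python 3.11.15 and matplotlib 3.10.9 drew the figures. The chi-square between replicates, divided by its degrees of freedom, was 8.28 to 133, so all were kept as separate samples. A marker of the B cell progenitor list is not reported here. The members, lists and tests were chosen with earlier results of these data known. Named were all members, Plcg1 and Plcg2, genes of the calcium lists that were called between genotypes (between populations, up to 3 of a list by adjusted p in the wild type, of which the smallest is given), and 3 genes most like each of the 3 members of widest range.

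Libraries from 1 mouse, CLPs and B cell progenitors, share its number in the sample titles. Deviations from group means correlated with a mean r of 0.11 within 12 such pairs (-0.35 to 0.53) and -0.06 in other pairs. Deviations cancel within a group, so the second mean is not independent of the first. Libraries of different genotypes with the same replicate number, which are different animals, had a mean r of 0.22 in CLPs and 0.097 in B cell progenitors. These values thus do not establish the pairing, which rests on the titles.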

Additional observations from a re-analysis of the deposited data

How the results depend on the processing

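In 16 of the 17 comparisons the number of members called was 0 under every alternative run: DESeq2, RLE size factors, the adjusted p without a fold threshold, all genes with a read, the compared groups alone, the share of reads on no gene as a covariate, a block, and leaving out any 1 library. The exception was the comparison of B cell progenitors with CLPs in Plcg1-/-Plcg2+/+, where the count ranged from 0 to 1 on leaving out a library: without mouse 1 of the B cell progenitors Orai2 was called, at -1.23 on the log2 scale (adjusted p = 0.0493), and without mouse 2 of the CLPs it was -0.42. With the share of reads on no gene in the fit, differences between populations turned positive: 0.93 for Orai2 and 0.22 for Stim1 in Plcg1-/-Plcg2+/+, and 0.10 for Atp2a3, 0.062 for Itpr3 and 0.13 for Stim1 in Plcg1-/-Plcg2-/-; the cause was not tested. That share separates the populations completely. With it in the fit, 61 of the 170 member results over the 17 comparisons changed sign, the named ones among them. Leaving out a library changed signs too, the largest that of a result of 0.548 in size, without mouse 1 of the wild-type CLPs. With the replicate number as a block, which the genotypes share without being the same animals, and with the mouse as a replicate block between populations, 0 members were called; Orai2 in Plcg1-/-Plcg2-/- B cell progenitors came closest, at an adjusted p of 0.0504 (0.0549 by DESeq2, and up to 0.595 on leaving out a library). Calls over all genes moved more, from 134 to 550 in that comparison with the block and to 438 by DESeq2, and in Plcg1-/-Plcg2-/- CLPs from 14 to 50 and 171. The shallowest library held 1479582 reads on genes, and the tests rest on 3 mice a group.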
